A study of Mus musculus with 24 samples.

Results

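This comparison set 8 arrays of colon fibroblasts from mice that lack Apc in the intestinal epithelium, here called ApcKO, against 7 arrays from wild-type mice, here called WT. It used 15 of the 24 arrays in the series, and the other 9, from mice that also lack epithelial Ihh, were not used. The arrays were chosen by the genotype in their titles: WT carried IhhWT-ApcWT and ApcKO carried IhhWT-ApcKO, and all 15 also carried Villincre-ERT2 and ZsGreen. The genotype field of each array gives the same, whereas the growth protocol names the double mutant, IhhKO-ApcKO, for all of them; the groups follow title and genotype field. Villin-Cre-ERT2 is a tamoxifen-inducible Cre recombinase driven by a promoter of the gut epithelium, and ZsGreen is a green fluorescent protein. The gene was therefore removed next to the profiled cells and not in them, so the level of Apc in the fibroblasts does not check the deletion. The cells were sorted from colon as Epcam-CD45-CD31-gp38+, where gp38 is podoplanin, and total RNA of each sample went to 1 Affymetrix Mouse Transcriptome Array. The labels give no age, sex, induction scheme or time after induction. Nor do they say that the arrays stand for separate mice, so the p-values measure only the spread between these samples. The question was what the loss of Apc in the epithelium does to RNA levels in the neighbouring fibroblasts, over 30827 genes.

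Apc is part of the complex that marks beta-catenin for destruction, and cells that lose it keep the Wnt pathway switched on. In the colon this loss is the usual first step of adenoma formation, and it takes place in epithelial cells. The fibroblasts below them supply Wnt ligands, R-spondins, BMP ligands and BMP antagonists, and they receive Hedgehog ligands from the epithelium. They also answer interferons and cytokines with chemokines and antigen processing genes. These signals formed the gene lists used below, besides lists for matrix, contraction, cell cycle, stress and fibroblast subtypes. The lists were chosen with earlier results of these data known, so no list is tested.

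Levels are deposited log2 values, on which 1 unit is a 2-fold difference, and differences are ApcKO minus WT. The standard error (SE) given with a difference is that of limma. The sort left a fibroblast profile in both groups. The 11 measured general fibroblast markers averaged between 10.03 and 10.33 on every array, against 5.61 for the median gene, and Pdpn, the gene of the gp38 sort marker, lay between 10.70 and 10.99. Leukocyte markers averaged 4.81 to 5.07, with 4 of 17 above the median gene and Ptprc (CD45) at 2.82 to 3.04. Antigenomic background probe sets, which match no mouse sequence, had array medians of 2.68 to 2.92. Pecam1 (CD31) lay between 4.99 and 6.51. Epithelial markers were present in spite of the Epcam- gate, and the 20 genes averaged from 5.90 to 7.64 on WT arrays and from 6.15 to 7.93 on ApcKO arrays. Apc itself was at 6.69 to 7.04 in WT and 6.68 to 7.02 in ApcKO, and these ranges nearly coincided. WT arrays A1 and A8 carried both Xist, at 7.15 and 9.50, and Y-linked RNA, at a mean of 6.38 and 6.28 over 3 genes. Every other array had either Xist above 11 with a Y-linked mean of at most 4.15, or Xist below 5 with a Y-linked mean of at least 5.84. Where leaving out A1 and A8 moved the difference printed for a gene by more than 1.5-fold, the value without them is given beside it. The letter of the sample code ran along with genotype, with A on every WT array and B on every ApcKO array except A9, so whatever the letter stands for cannot be told apart from genotype.

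No gene was called. The limma test with Benjamini-Hochberg adjustment left 0 of 30827 genes (0%) at an adjusted p under 0.05, and the smallest adjusted p was 0.945. With the letter of the sample code as a block, which in effect sets ApcKO A9 alone against the WT arrays, 123 genes were called. Before adjustment, 1404 genes (4.55%) had a p under 0.05, fewer than the 1541 that a threshold of 0.05 lets through on average with no difference at all. Of these, 938 (3.04% of all genes) were lower in ApcKO and 466 (1.51%) were higher, so 66.8% were lower. That share moved with the scaling and was 42.9% after each array was centred on its median and 52.1% after the 15 arrays were quantile-normalized again. Over all genes 60.6% of differences were below 0 and 39.4% above, with a median of -0.021. Counts of lower or higher list members below are to be read beside these shares. Counts of members at an unadjusted p under 0.05 are to be read beside 3.04% lower and 1.51% higher. Without WT arrays A1 and A8 the count at an unadjusted p under 0.05 was 854.

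The intervals say how large a difference the arrays could still hide. The median SE was 0.074, and the 95% interval of the difference lay within 2-fold on both sides for 30650 genes (99.4%) and within 1.5-fold for 30142 (97.8%). Among the 15413 genes above the median gene the shares were 99.3% and 97.6%. The intervals are those of single genes, not adjusted for their number. Single differences ran from -1.45 to 1.38, and the central 98% of genes lay between -0.24 and 0.28. Differences beyond 1 log2 unit occurred in 1 gene with a lower and 9 genes with a higher mean in ApcKO.

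**Figure D1:**
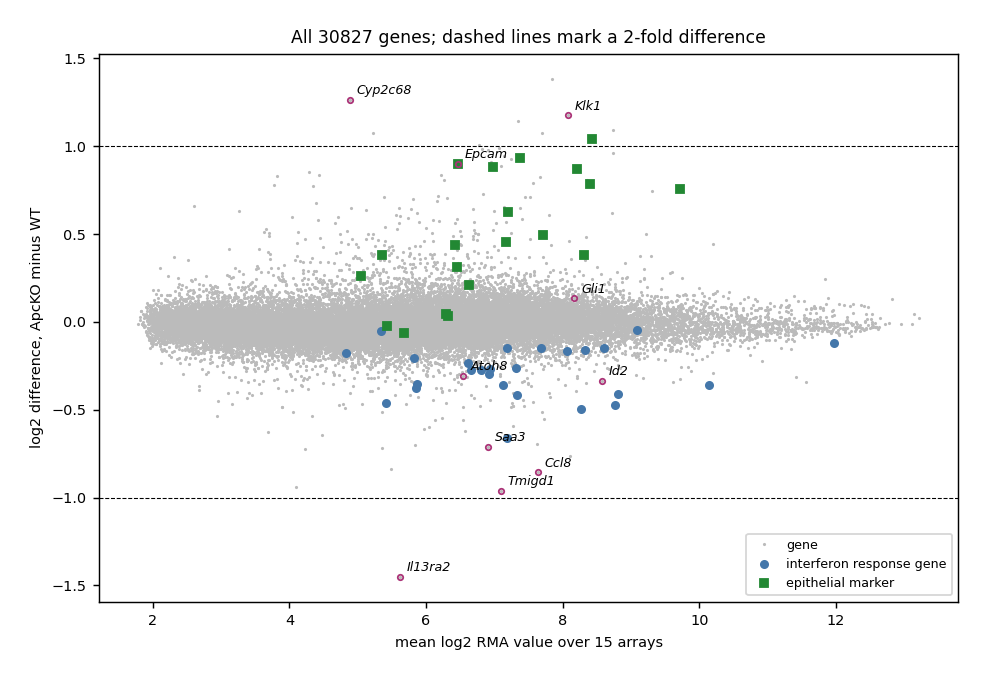
Each grey point is 1 of 30827 genes, with its mean log2 value over 15 arrays on the horizontal axis and its log2 difference, ApcKO minus WT, on the vertical axis. Interferon response genes (blue circles) all lie below 0, from -0.66 to -0.047, and most epithelial markers (green squares) lie above it. Named genes are ringed, and Il13ra2 at -1.45 is the lowest point.

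The lowest list was that of the interferon response. Of its 28 genes 26 were measured, and all 26 had a lower mean in ApcKO, with a median difference of -0.27 against -0.021 for all genes. None was called, and 17 of 26 had an unadjusted limma p under 0.05 in the lower direction, where the share over all genes was 3.04%. The list was chosen with earlier results known and its members can vary together across arrays, so this count is a description and not a test. Interferons act through STAT and IRF factors, and the IRF factors bind repeated GAAA boxes. The 4 promoters printed here belong to the members among the 6 of smallest p that hold such a repeat. They are stretches of 100 bases from the RefSeq promoter table, build GRCm38.p6, written 5′ to 3′ on the gene's strand. Capitals mark the boxes of the core GAAANNGAAA, which reads TTTCNNTTTC when it lies on the opposite strand. Ifit3 is at chr19:34583328-34583427 (plus strand), Rsad2 at chr12:26456518-26456617 (minus), Gbp3 at chr3:142559944-142560043 (plus) and Gbp7 at chr3:142530236-142530335 (plus).
Ifit3: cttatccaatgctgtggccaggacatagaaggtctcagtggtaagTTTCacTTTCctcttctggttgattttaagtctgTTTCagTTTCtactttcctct
Rsad2: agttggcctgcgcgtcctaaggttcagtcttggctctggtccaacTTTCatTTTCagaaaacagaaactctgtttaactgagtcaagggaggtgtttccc
Gbp3: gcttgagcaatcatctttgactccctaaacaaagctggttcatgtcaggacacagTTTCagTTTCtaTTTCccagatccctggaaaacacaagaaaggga
Gbp7: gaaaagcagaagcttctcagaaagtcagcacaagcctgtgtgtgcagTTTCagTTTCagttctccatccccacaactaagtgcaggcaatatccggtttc

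In Ifit3 the first core starts 156 bases before the annotated start, in Rsad2 120, in Gbp3 45 and in Gbp7 53. Ifit3 and Gbp3 hold 2 cores each, and in Gbp3 they overlap, which gives 3 TTTC boxes in a row. Another annotated promoter of Gbp3, at chr3:142560106-142560405, held no core. The core, searched on both strands in promoters of 300 bases, occurred in 13 of the 22 interferon genes with a promoter in the table (59.1%). A gene with several promoters was counted if any of them held the core. It occurred in 703 of 18259 measured genes with a promoter (3.85%) and in 3.44% of all 32851 promoters. Psmb8 and Oasl2, the other 2 of the 6 members of smallest p, held no match in this window. A match is a run of letters and not a shown binding site.

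Gbp3, an interferon-inducible GTPase of the guanylate-binding family, was at 7.30, 7.48 and 7.79 (lowest, median and highest) on the 7 WT arrays and at 6.88, 7.13 and 7.36 on the 8 ApcKO arrays. The groups overlapped only in part, with 7 of 8 ApcKO arrays below every WT array, and the difference was -0.42 (SE 0.089). Gbp7, of the same family, ran through 7.99, 8.50 and 9.10 in WT and 7.63, 8.02 and 8.37 in ApcKO, a difference of -0.50 (SE 0.14), or -0.33 without A1 and A8. Both belong to a cluster of near-identical genes whose probes may hybridize across members, so the split between them is uncertain. Rsad2 (viperin), an antiviral enzyme, was at 5.23, 5.64 and 6.13 in WT and 4.99, 5.12 and 5.56 in ApcKO, a difference of -0.46 (SE 0.12). Ifit3, an antiviral RNA-response protein, was at 5.49, 6.08 and 6.33 in WT and 5.36, 5.72 and 5.93 in ApcKO, a difference of -0.35 (SE 0.12). In all 4 genes the upper WT arrays stood clear of ApcKO and the lowest WT array lay within its range. The largest difference in the list was that of Cxcl9, a ligand of the T-cell chemokine receptor Cxcr3. Its WT values were 6.68, 7.58 and 8.49 and its ApcKO values 5.92, 7.08 and 7.66, a difference of -0.66 (SE 0.28), or -0.36 without A1 and A8.

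The mean of the 26 interferon genes on each array shows where the difference lies. It was 7.21, 7.54 and 7.82 in WT and 7.21, 7.27 and 7.40 in ApcKO, and the SD was 0.21 in WT against 0.061 in ApcKO. Of the 7 WT arrays 6 lay above every ApcKO array, while WT A6, at 7.212, lay just below the lowest ApcKO array, B1 at 7.214. The SD was larger in WT for 23 of 26 members, against 55.2% of all genes. WT A1, at 7.82, was the highest array, and A8, at 7.67, the third highest. Without A1 and A8, 25 of 26 members were still lower, the median difference was -0.21, and 9 had an unadjusted p under 0.05. That count was 10 without WT A1 and 11 without ApcKO B1. With the epithelial marker mean of each array as a covariate, all 26 were lower with a median of -0.22, and 11 had an unadjusted p under 0.05.

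**Figure D2:**
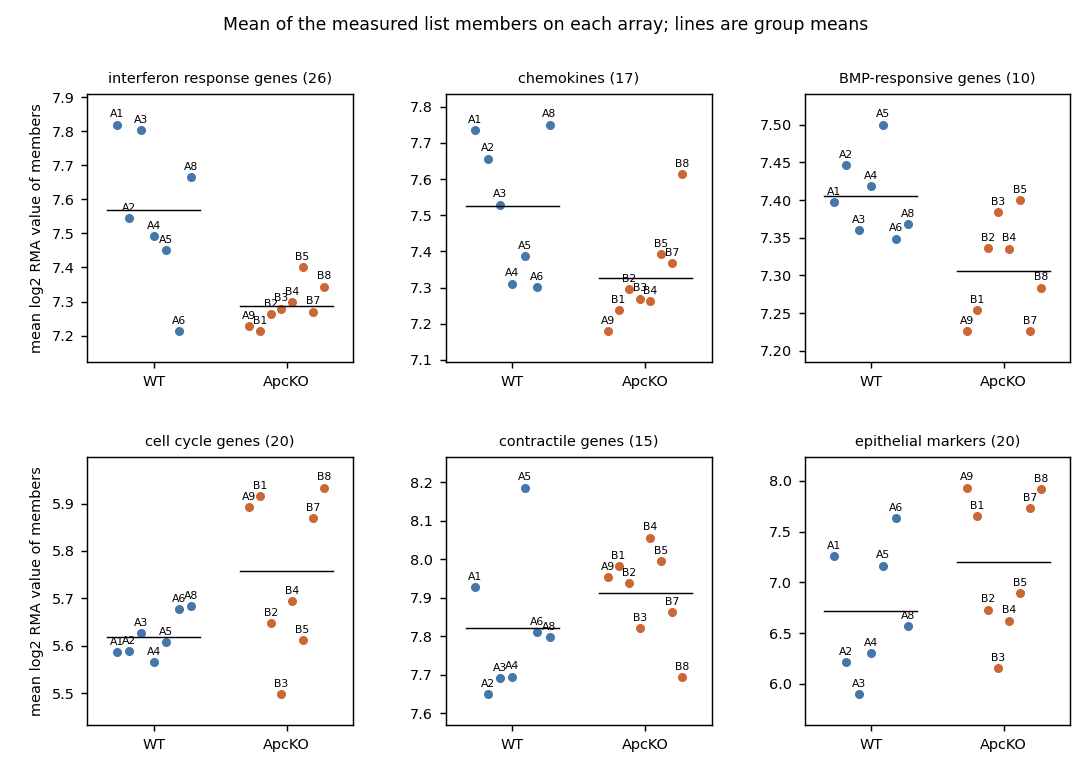
The mean log2 value of the measured members of 6 lists is plotted for each array, 7 WT (blue) and 8 ApcKO (orange), with the sample code beside each point and the group mean as a line; each panel has its own vertical scale. Interferon genes are high on 6 of 7 WT arrays, and cell cycle genes are high on the ApcKO arrays A9, B1, B7 and B8, which also have the highest epithelial means.

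Antigen processing genes load peptides on MHC class I and share several members with the interferon list. They were lower in 10 of 11 members, against 60.6% of all genes, with a median of -0.13. At an unadjusted p under 0.05 there were 4 members, all lower, against 3.04% of all genes. That count was 2 without WT A1, without WT A8 or without ApcKO B1, and 1 without both A1 and A8. Psmb8, a catalytic subunit of the immunoproteasome, was at 6.78, 7.08 and 7.34 in WT and at 6.55, 6.85 and 6.97 in ApcKO, a difference of -0.27 (SE 0.078). The groups overlapped, with 3 of 8 ApcKO arrays below every WT array. Psmb9, another such subunit, differed by -0.24 (SE 0.10), or -0.11 without A1 and A8, and the proteasome activator Psme1 by -0.15 (SE 0.059).

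Chemokines, the secreted proteins that recruit leukocytes, were lower in 14 of 17 members, against 60.6% of all genes, with a median of -0.14. In that direction 5 had an unadjusted limma p under 0.05, against 3.04% of all genes. Among them was Cxcl9, which also belongs to the interferon list. Leaving out WT A1 or WT A8 lowered the count to 2, and leaving out ApcKO A9, B1, B5 or B7 lowered it to 3. Without both A1 and A8 it was 1, with 14 members still lower and a median of -0.076. Ccl8, which attracts monocytes and other leukocytes, was at 7.07, 8.17 and 8.95 in WT against 6.69, 7.21 and 7.73 in ApcKO. Of the 7 WT arrays 4 stood above the ApcKO range and the others lay within it, and the difference was -0.85 (SE 0.25), or -0.54 without A1 and A8. Cxcl5, a neutrophil attractant, differed by -0.29 (SE 0.11), or -0.16 without A1 and A8. Cxcl14, which is made by subepithelial fibroblasts, had the opposite sign at 0.16 (SE 0.079). So did Ccl25, a chemokine that the list does not hold, at 0.24 (SE 0.063), with 6 of 8 ApcKO arrays above every WT array.

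Other inflammatory mediators showed less. Of 20 measured cytokines and mediators 15 were lower, against 60.6% of all genes, with a median of -0.067. Of them 2 had an unadjusted p under 0.05 (0 without A1 and A8), against 3.04% of all genes in the lower direction. The acute-phase protein gene Saa3 was at 6.31, 6.97 and 8.996 in WT and 5.95, 6.45 and 7.49 in ApcKO, a difference of -0.71 (SE 0.32). The highest WT array stood apart from its group, and without A1 and A8 the difference was -0.45. Ptgs2, the inducible cyclooxygenase, was at 9.995, 10.45 and 10.79 in WT and 9.86, 10.06 and 10.26 in ApcKO, a difference of -0.29 (SE 0.10), or -0.18 without A1 and A8. Il6, a central cytokine of inflamed fibroblasts, differed by -0.093 (SE 0.12), and by 0.024 without A1 and A8. Complement genes, whose proteins opsonize microbes, were lower in 6 of 8 members, with a median of -0.12. Their first member by size was Cfb, complement factor B, at -0.35 (SE 0.18).

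The largest difference of all 30827 genes was that of Il13ra2, the decoy receptor that binds interleukin-13 without signalling. It was at 5.05, 6.78 and 7.82 on WT arrays and at 4.44, 4.77 and 5.65 on ApcKO arrays. The WT arrays fell far apart, and 6 of 8 ApcKO arrays lay below the lowest of them. The difference was -1.45 (SE 0.38), a 2.73-fold lower mean in ApcKO, with an adjusted limma p of 0.945. It was -1.01 without A1 and A8 and -1.21 with the epithelial covariate. The list of interleukin-4 and interleukin-13 response genes was lower in 12 of 13 members (8 of 13 after centring each array on its median), against 60.6% of all genes. Its median was -0.11. At an unadjusted p under 0.05 there were 5 lower members (3 without A1 and A8), against 3.04% of all genes. Besides Il13ra2 and Ccl8, Retnla, a secreted marker of type 2 responses, differed by -0.28 (SE 0.088), at a level of 3.34 to 4.07 that is close to background.

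Some of the smallest p values of all genes belonged to BMP-responsive genes. BMP ligands signal through SMAD proteins to the Id genes, which encode inhibitors of basic helix-loop-helix factors, and to Atoh8, a transcription factor of that helix-loop-helix class. Atoh8 was at 6.59, 6.68 and 6.80 in WT and at 6.20, 6.40 and 6.63 in ApcKO. The groups met only at 1 ApcKO array, since 7 of 8 ApcKO arrays lay below every WT array, and the difference was -0.31 (SE 0.059). Id3 was at 8.76, 8.98 and 9.06 in WT and at 8.56, 8.71 and 8.79 in ApcKO, a difference of -0.25 (SE 0.057). Id2 was at 8.59, 8.74 and 8.87 in WT and at 8.15, 8.43 and 8.76 in ApcKO, a difference of -0.34 (SE 0.086). For Id3 5 and for Id2 6 of the 8 ApcKO arrays lay below every WT array. The same 3 genes differed by -0.32, -0.24 and -0.32 without A1 and A8, and by -0.29, -0.23 and -0.29 with the epithelial covariate.

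The rest of the BMP-responsive list did not share this size. Of its 10 members 7 were lower, against 60.6% of all genes, and the median was -0.070. At an unadjusted p under 0.05 there were 3 members, all lower, against 3.04% of all genes. Id1, the family member most often used as a BMP readout, was at 7.47, 7.63 and 7.80 in WT and 7.43, 7.67 and 7.86 in ApcKO. These ranges almost coincided, with a difference of 0.038 (SE 0.070), or 0.082 without A1 and A8, and an interval of -0.11 to 0.19. The ligands and antagonists of the pathway were split evenly, with 7 of 14 higher, a median of 0.0055 and none at an unadjusted p under 0.05. Bmp6 differed by 0.11 (SE 0.082), or 0.039 without A1 and A8. Grem1, the main BMP antagonist of colon fibroblasts, differed by -0.0044 (SE 0.11), with an interval of -0.24 to 0.23 and a sign that turned under several settings (0.042 without A1 and A8).

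**Figure D3:**
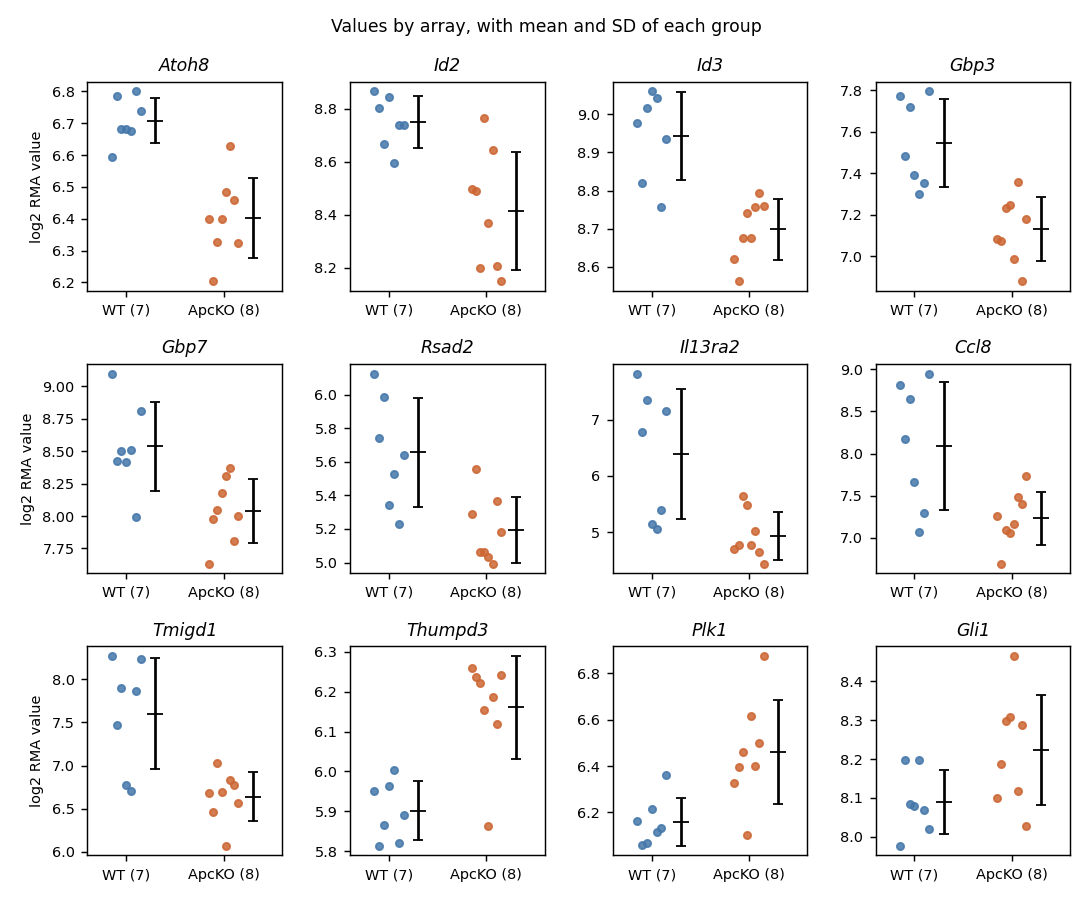
Log2 values of 12 named genes are plotted for each array, 7 WT (blue) and 8 ApcKO (orange), with the mean and the SD of the group as bars; each panel has its own vertical scale. Atoh8, Id2, Id3, Gbp3, Rsad2, Il13ra2 and Tmigd1 have most ApcKO arrays below the WT range. The WT arrays of Il13ra2 and Ccl8 lie far apart, and for Ccl8 2 of 8 ApcKO arrays lie below the WT range.

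Hedgehog signalling from epithelium to fibroblasts is read from Gli1, Ptch1 and Hhip, which the pathway induces as its transcription factor, receptor and ligand-binding protein. Gli1 was at 7.98, 8.08 and 8.20 in WT and at 8.03, 8.24 and 8.47 in ApcKO. The lower ApcKO arrays lay within the WT range and 4 lay above it, and the difference was 0.14 (SE 0.064). Ptch1 was at 9.32, 9.63 and 9.84 in WT and at 9.05, 9.77 and 10.05 in ApcKO, so ApcKO extended past WT on both sides, with a difference of 0.045 (SE 0.13) that turned to -0.0014 without WT A1 and to -0.014 without ApcKO B4. Hhip differed by 0.24 (SE 0.19), with an interval of -0.16 to 0.65. Over the list 6 of 7 members were higher, with a median of 0.045, and 1 of 7, Gli1, had an unadjusted p under 0.05 (0 without A1 and A8). Of the 10 receptors and mediators 5 were higher and 5 lower, with none at an unadjusted p under 0.05, and the co-receptor Cdon had the smallest p at -0.15 (SE 0.078).

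Among Wnt genes of the fibroblasts, the intervals of all canonical targets lay between -0.35 and 0.30. Those of the Wnt ligands lay between -0.26 and 0.31. Axin2, the usual readout of canonical Wnt signalling, was at 6.38, 6.57 and 6.85 in WT and at 6.37, 6.60 and 6.77 in ApcKO, and the ranges coincided. Its difference was -0.018 (SE 0.072), with an interval of -0.17 to 0.13 and a sign that turned under some settings. Lef1, a transcription factor of the pathway, differed by -0.12 (SE 0.11), and Znrf3, a ubiquitin ligase that removes Wnt receptors, by 0.15 (SE 0.068), or 0.10 without A1 and A8. Of 10 measured canonical targets 7 were lower (4 of 10 after centring), against 60.6% of all genes, and 1 had an unadjusted p under 0.05. Wnt ligands were lower in 6 of 9 members, with none at an unadjusted p under 0.05, and Wnt5a differed by 0.042 (SE 0.079), or 0.078 without A1 and A8.

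R-spondins, which strengthen Wnt signals to crypt cells, and secreted Wnt inhibitors were lower in 10 of 14 members, against 60.6% of all genes. The median was -0.070. Rspo1 was at 6.91, 7.24 and 7.45 in WT and at 6.78, 6.97 and 7.14 in ApcKO, a difference of -0.26 (SE 0.082). The groups overlapped, with 2 of 8 ApcKO arrays below every WT array. Rspo3, another R-spondin of the crypt stroma, differed by -0.073 (SE 0.11), or -0.045 without A1 and A8. Sfrp2, a secreted inhibitor, had the opposite sign at 0.19 (SE 0.081). Differences in this list ran from -0.43 to 0.28, and the intervals of its members reached from -0.997 to 0.63.

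Structural genes of the fibroblast differed little. None of the 20 collagens had an unadjusted p under 0.05, and their differences ran from -0.10 to 0.18. The same held for 24 matrix and matricellular genes, with differences from -0.17 to 0.15, and for 16 proteases and inhibitors. Among these last the matrix metalloproteinase Mmp3 varied most, from 6.47 to 9.17 in WT and from 6.25 to 8.52 in ApcKO, with a difference of -0.69 (SE 0.38). Plau, which activates plasminogen, differed by -0.21 (SE 0.10).

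Contractile genes, which mark myofibroblasts and smooth muscle, were higher in 10 of 15 members, with a median of 0.099 and none at an unadjusted p under 0.05. Leaving out WT A5, the array with the highest contractile mean, raised that count to 6. Acta2, smooth muscle actin, was at 9.07, 9.33 and 9.997 in WT and at 9.40, 9.74 and 10.15 in ApcKO, a difference of 0.29 (SE 0.14). The groups overlapped over most of their range, and the difference was 0.18 with the epithelial covariate. Actn1 and Myl9, an actin cross-linker and a myosin light chain, differed by 0.19 (SE 0.11) and 0.18 (SE 0.10).

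Genes of the subepithelial PDGFRA-high fibroblasts, which lie against the epithelium, were higher in 10 of 12 members, with a median of 0.098. Ednrb, an endothelin receptor, was at 6.20, 6.41 and 7.42 in WT and at 6.39, 6.93 and 7.41 in ApcKO, a difference of 0.39 (SE 0.18), and the WT range enclosed all 8 ApcKO arrays. Dll1, a Notch ligand, went the other way, at 6.21, 6.59 and 6.90 in WT and 6.04, 6.37 and 6.47 in ApcKO, a difference of -0.30 (SE 0.097). These 2 were the members with an unadjusted p under 0.05, none was without A1 and A8, and the count of higher members at that p was 4 without WT A5. Genes of CD34-positive fibroblasts were lower in 11 of 14 members (6 of 14 after centring). Ly6c1, a surface protein of that list, was at 9.61, 9.86 and 10.07 in WT and at 9.47, 9.57 and 9.88 in ApcKO, a difference of -0.26 (SE 0.072). Cd34 itself differed by -0.045 (SE 0.064), or -0.083 without A1 and A8. In sorted bulk RNA, fewer cells of a subtype and less RNA per cell cannot be told apart.

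**Figure D4:**
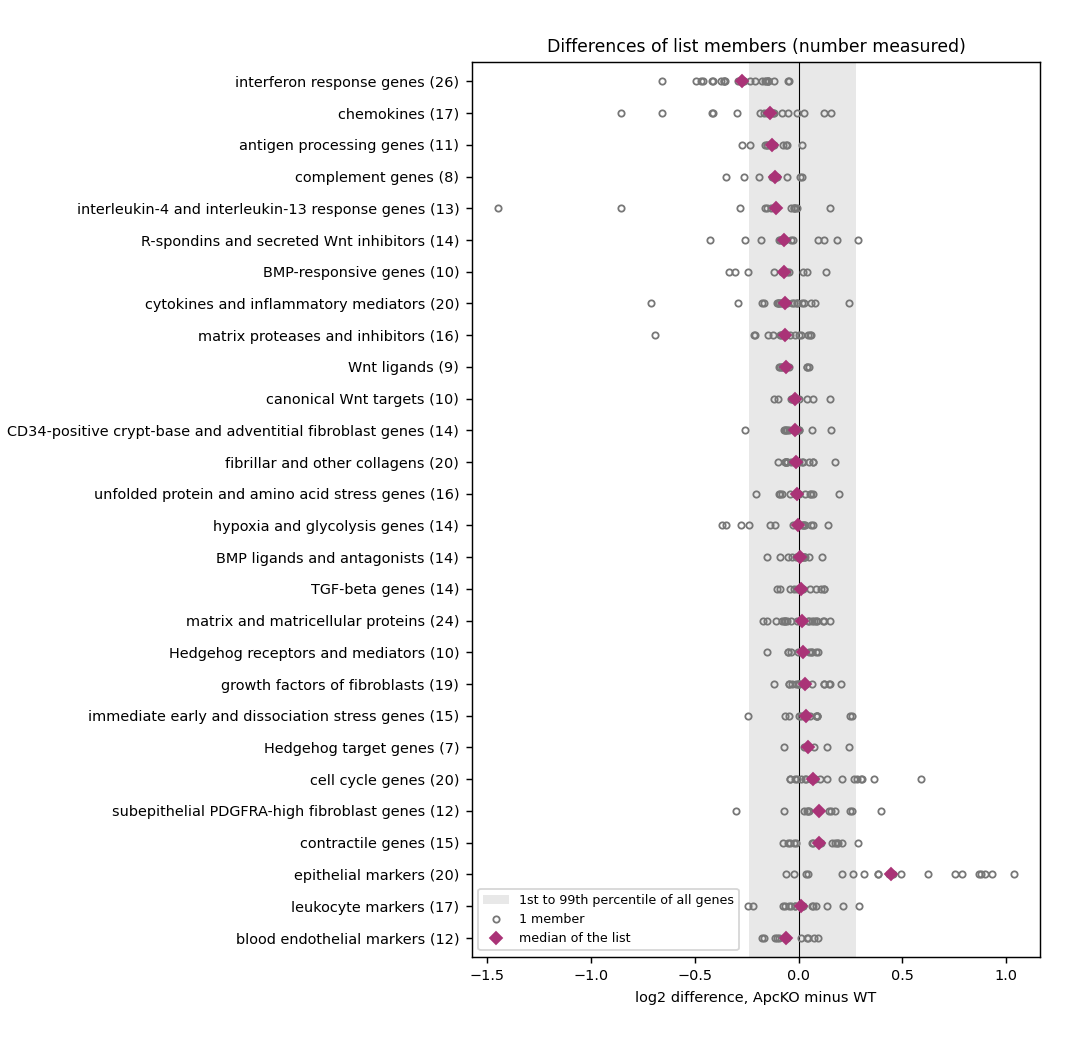
Each open circle is the log2 difference, ApcKO minus WT, of 1 measured member of a list, each diamond is the median of the list, and the grey band spans the 1st to 99th percentile of all genes, -0.24 to 0.28. The interferon list has the lowest median at -0.27 and the epithelial markers the highest at 0.45, while the other medians shown lie between -0.14 and 0.099.

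Cell cycle genes were higher in 16 of 20 members, with a median of 0.072, and 6 had an unadjusted p under 0.05 in that direction, against 1.51% of all genes. That count was 3 without WT A5, ApcKO A9 or ApcKO B7. Plk1, a mitotic kinase, was at 6.06, 6.13 and 6.36 in WT and at 6.10, 6.43 and 6.87 in ApcKO, a difference of 0.30 (SE 0.087), with 6 of 8 ApcKO arrays above every WT array. Cdk1, the kinase that starts mitosis, differed by 0.28 (SE 0.098), or 0.16 with the epithelial marker mean as a covariate, and the spindle motor Kif11 by 0.36 (SE 0.13). The mean of the 20 genes was at least 5.87 on ApcKO A9, B1, B7 and B8 and at most 5.69 on the 4 other ApcKO arrays and all 7 WT arrays. These 4 arrays had epithelial means of 7.65 to 7.93, and WT A6, with an epithelial mean of 7.64, had a cell cycle mean of 5.68. With the epithelial mean as a covariate the median was 0.042 and 2 members had an unadjusted p under 0.05. Mki67, a marker of proliferating cells, differed by 0.59 (SE 0.29), and by 0.21 with that covariate. The part of epithelial RNA in these differences was not tested further.

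Hypoxia and glycolysis genes were split, with 7 of 14 lower. Of the 14 members 4 were lower at an unadjusted p under 0.05 (2 without A1 and A8), against 3.04% of all genes. Egln3, a prolyl hydroxylase that hypoxia induces, was at 6.84, 7.05 and 7.35 in WT and at 6.29, 6.75 and 7.08 in ApcKO, a difference of -0.37 (SE 0.10). Of the 8 ApcKO arrays 7 lay below every WT array. Pfkfb3, which speeds glycolysis, differed by -0.35 (SE 0.12), and Ankrd37, a target of hypoxia-inducible factor, by -0.24 (SE 0.080). Immediate early genes, which respond to tissue dissociation, were higher in 12 of 15 members with a median of 0.038. Unfolded protein and amino acid stress genes had 5 of 16 higher (11 of 16 after centring) and none at an unadjusted p under 0.05. Growth factors were higher in 12 of 19, and Fgf2 was the 1 member at an unadjusted p under 0.05, with a difference of 0.15 (SE 0.059). TGF-beta genes were higher in 9 of 14 (6 of 14 without A1 and A8), with none at that p.

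Outside the lists, several genes above the median gene had small p values and lower values in ApcKO. Tmigd1, an immunoglobulin-type membrane protein, was at 6.71, 7.86 and 8.27 in WT and at 6.07, 6.69 and 7.03 in ApcKO, a difference of -0.96 (SE 0.22), or -0.70 without A1 and A8. Most WT arrays stood well above ApcKO and the lowest lay inside its range. Rasl11a, a small GTPase, differed by -0.26 (SE 0.063), Lysmd2, a LysM domain protein, by -0.29 (SE 0.072) and the membrane protein Tmem140 by -0.27 (SE 0.072). Chl1, a neural adhesion molecule, differed by -0.62 (SE 0.29), and by -0.31 without A1 and A8. The same rule named 12 genes with higher values in ApcKO, whose differences ran from 0.19 to 0.37. Thumpd3, a tRNA methyltransferase, was at 5.81, 5.89 and 6.005 in WT and at 5.86, 6.20 and 6.26 in ApcKO, a difference of 0.26 (SE 0.060), with 7 of 8 ApcKO arrays above every WT array. The chromatin kinase Tlk1 differed by 0.23 (SE 0.058) and the sterol synthesis protein Erg28 by 0.24 (SE 0.059). Pde10a, which degrades cyclic nucleotides, was the largest of the 12 at 0.37 (SE 0.096). The others were Mpp7 at 0.31, the chemokine Ccl25 at 0.24, Rnf40 at 0.27, Ttc27 at 0.26, Cog3 at 0.24, Usp5 at 0.19, Cavin3 at 0.25 and Greb1l at 0.22.

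In all, 2 of 30827 genes (0.00649%) had groups that did not overlap at all, both with every ApcKO array below every WT array, and they were named after their values were seen. The uncharacterized 9130015L21Rik was at 5.52, 5.58 and 6.27 in WT and at 4.49, 5.02 and 5.47 in ApcKO, a difference of -0.72 (SE 0.14). Mm2pr differed by -0.17 (SE 0.050). Both lie near or below the median gene. Leaving out an array can only keep or raise this count, so its rise says nothing about how stable it is. With any 1 of the 15 arrays left out it lay between 5 (WT A1 or ApcKO B2) and 21 (WT A3 or A5). Leaving out A1 and A8 gave 14.

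Epithelial genes were among the largest positive differences. Of the 20 epithelial markers 18 were higher in ApcKO, with a median of 0.45, and 1 had an unadjusted p under 0.05. That count changed with nearly every array left out and reached 11 without ApcKO B3. Epcam, the epithelial adhesion protein that the sort excluded, was at 5.18, 5.85 and 7.43 in WT and at 5.67, 6.92 and 8.11 in ApcKO, a difference of 0.90 (SE 0.40). Both groups covered a wide and largely shared range. E-cadherin (Cdh1) differed by 0.88 (SE 0.42) and the brush border protein Vil1 by 0.44 (SE 0.22). Among other genes, Cyp2c68, a cytochrome P450, was at 3.73, 4.04 and 5.13 in WT and at 4.06, 5.43 and 6.94 in ApcKO, a difference of 1.27 (SE 0.40). The kallikrein Klk1 differed by 1.17 (SE 0.51), Oit1 by 1.08 (SE 0.45), the kallikrein Klk1b5 by 0.99 (SE 0.39) and the chloride channel regulator Clca3b by 0.98 (SE 0.46).

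These genes followed the epithelial marker mean across the 15 arrays, which share both groups. Pearson's r with that mean was 0.965 for Klk1, 0.955 for Oit1, 0.943 for Klk1b5, 0.852 for Clca3b and 0.765 for Cyp2c68, given as a description. With the mean as a covariate the differences were 0.37, 0.37, 0.38, 0.35 and 0.79 in the same order, and that of Epcam, which is itself 1 of the 20 genes in the mean, was 0.26. With the same covariate Il13ra2, Tmigd1 and Ccl8 were at -1.21, -0.98 and -0.79, and Saa3, Cxcl9 and Chl1 at -0.80, -0.53 and -0.50. The marker mean ran with genotype only in part. It spanned 5.90 to 7.64 on WT arrays and 6.15 to 7.93 on ApcKO arrays, with 18 of 20 markers higher in ApcKO. The covariate may therefore also take up part of a genotype difference, and how much was not tested. Of the 177 genes whose interval reached beyond 2-fold, 74 (41.8%) had an r above 0.8 with the epithelial mean, against 0.792% of all genes, and 11 were epithelial markers themselves. Whether the epithelial RNA came with sorted cells or as free RNA was not tested.

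**Figure D5:**
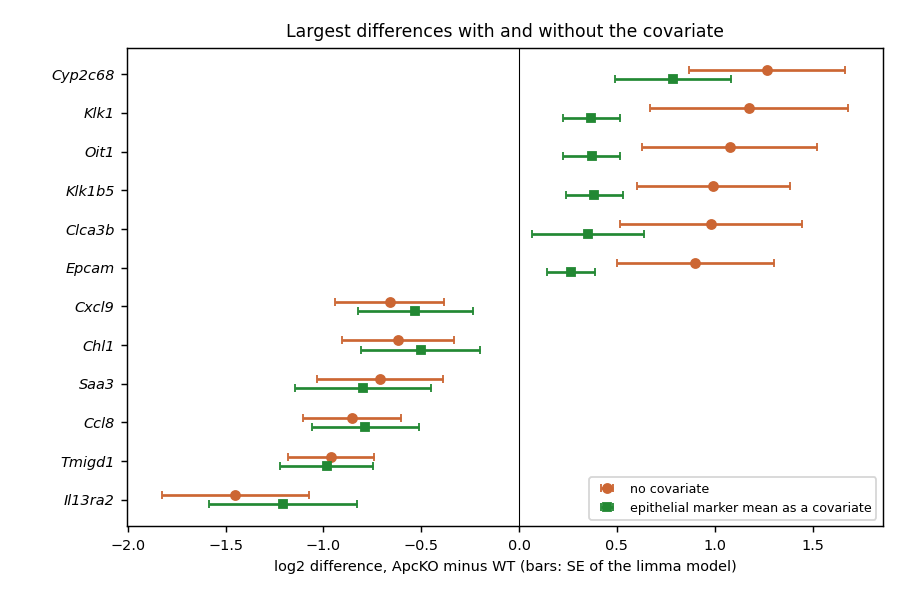
The 6 largest positive and 6 largest negative differences among protein-coding genes with an unadjusted p under 0.05 are plotted as log2 differences, ApcKO minus WT, with bars of 1 SE, from the model without a covariate (orange circles) and with the epithelial marker mean of each array as a covariate (green squares). Klk1 moves from 1.17 to 0.37 and Epcam, itself part of the mean, from 0.90 to 0.26, while Il13ra2 moves from -1.45 to -1.21.

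Markers of other cell types had few members at an unadjusted p under 0.05. Both measured markers of the interstitial cells of Cajal were higher, with a median of 0.22 and none at that p. Their mean was highest on ApcKO A9, B1, B7 and B8, at 6.41 to 6.68, and these arrays also had the highest epithelial means. Mesothelial markers were lower in 5 of 6 members, and their differences ran from -0.49 to 0.87. Krt19 belongs to both the mesothelial and the epithelial list. Blood endothelial markers averaged 5.60 to 6.18 and 0 of 12 had an unadjusted p under 0.05. Among leukocyte markers Nkg7 of cytotoxic cells differed by -0.24 (SE 0.080), the mast cell protease Cpa3 by -0.22 (SE 0.094) and the macrophage lysozyme Lyz2 by 0.29 (SE 0.16), or 0.13 with the epithelial covariate. Lymphatic Prox1 differed by -0.23 (SE 0.079), neuronal Uchl1 by -0.23 (SE 0.085), mesothelial Lrrn4 by -0.49 (SE 0.21) and pericyte Abcc9 by 0.23 (SE 0.084). General fibroblast markers were lower in 9 of 11 members (7 of 11 after centring) with a median of -0.066, with Thy1 at -0.15 (SE 0.077), S100a4 at -0.21 (SE 0.12), or -0.11 without A1 and A8, and none at an unadjusted p under 0.05.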

How the data were processed

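RNA of sorted mouse colon fibroblasts was measured on 1-colour Affymetrix Mouse Transcriptome Array 1.0 arrays, 1 per sample. The deposited values are log2 values made with RMA (background correction, quantile normalization and a summary per probe set), per the submitters' processing notes. Neither the software for RMA nor a genome build is given in the sources used here. RMA makes the distributions of arrays alike, which can hide a shift of all genes. The table held 72688 probe sets in 24 columns. After 6732 controls were left out, 31388 of 65956 transcript clusters had 1 gene in the platform annotation, 1362 had several and 33206 had none. For 423 genes with several probe sets the brightest over the 24 arrays was taken, which gave 30827 genes, 19242 of them protein-coding in RefSeq. For 1611 probe sets the symbol was updated by Entrez identifier.

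The number of arrays, 15, limits the precision. Array medians lay between 4.98 and 5.14, arrays correlated at 0.986 to 0.995, and no 2 were identical. Differences were tested with limma 3.58.1 (R 4.3.3; lmFit, then eBayes without trend, no filter) on the 15 arrays, with Benjamini-Hochberg adjustment over all genes and a threshold of 0.05. The script was tested on simulated data. Groups came from the genotype in the titles. Numbers of the sample codes recur in both groups (A1 and B1), but no label ties them to a shared animal, litter or day, so no block was used. Alternatives were all 24 arrays in 1 model, robust and weighted fits, a filter, other scalings, covariates, the code letter as a block and each array left out. Leaving out A1 and A8, and the code number as a block, were chosen after seeing the data. The gene lists (25 process and 10 cell type lists) and the members of this comparison were chosen with earlier results of these data known, so no list is tested. Named genes were, among protein-coding genes, the 12 of smallest p per direction above the median gene, the 6 largest differences per direction at an unadjusted p under 0.05, and the 3 of smallest p in each list with its textbook members. Promoters were read from a RefSeq table, with 250 bases before and 50 after each start, and strand orientation was checked on 1629 overlapping pairs.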

Additional observations from a re-analysis of the deposited data

Results flagged for a closer look

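Within each group, 1 array stood apart from the others in 6 of 250 sets of values examined, which were those of the named genes and the list means, and chance alone gives about 1 in 20. All 6 were ApcKO arrays. Array A9, the 1 ApcKO array with the code letter A, was the low one in 3 of them. It had Grem1 at 8.70 against 9.18 to 9.44 on the others, Cog3 at 6.25 against 6.51 to 6.61, and a mean of complement genes at 9.16 against 9.31 to 9.44. Thumpd3 was at 5.86 on B4 against 6.12 to 6.26, and B4 was the array that kept this gene from lying wholly above WT. Ly6c1 was at 9.88 on B8 against 9.47 to 9.61, within the WT range. Thy1 was at 7.25 on B7 against 7.50 to 7.71.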

How the results depend on the processing

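No gene was called under any alternative run except the letter of the sample code as a block, which called 123 genes and in effect compares ApcKO A9 alone with the WT arrays; the cause was not tested. Over the other alternatives the smallest adjusted limma p ran from 0.332 to 1.00, and the count at an unadjusted p under 0.05 from 661 (only genes above the median gene, where fewer genes are tested) to 2077 (without WT A5). The share of genes with an interval within 2-fold ran from 99.3% to 99.7%, and within 1.5-fold from 97.4% to 98.1%. The count of genes whose groups do not overlap was 5 with arrays centred on their median, 0 among genes above the median gene, 14 without WT A1 and A8, and 5 to 21 with 1 array left out. The interferon median ran from -0.31 to -0.21, with at least 23 members lower in each of 21 counts, and the filtered count had fewer members. Of 90 named genes 84 kept their sign. The 6 that did not all lay near 0, and the cause was not tested. Id1 was at -0.018, Cd34 at 0.0042, Axin2 at 0.0024 and Grem1 at 0.057 with the epithelial covariate. Axin2 was at 0.027 with array weights and 0.0086 after centring. Grem1 was at 0.022 after centring, 0.0036 after quantile normalization and 0.042 without A1 and A8, where Il6 was at 0.024. With 1 array left out, Ptch1 ran from -0.014 to 0.13, Axin2 from -0.054 to 0.026 and Grem1 from -0.049 to 0.072. With the number of the sample code as a replicate block, over the 12 arrays of the 6 numbers found in both groups, 0 genes were called by limma and 1990 had an unadjusted p under 0.05, against 0 and 1817 for the same arrays without the block. Deviations from the group means correlated at -0.038 to 0.23 within these pairs, above 0.1 in 4 of 6. Of the 6 WT arrays 2 correlated best with the ApcKO array of their number. Whether the pairs share an animal, litter or day is not in the labels and was not tested. Differences of genes near the antigenomic background may be understated.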
